A study of Equus caballus with 4 samples.

Results

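The mRNA of the epidermal growth factor (EGF) family and its receptors was described in equine satellite cells, the muscle stem cells of the horse, exposed to β-hydroxy-β-methylbutyrate (HMB), which the body makes from leucine. The 10 genes were the ligand genes *AREG*, *EREG*, *HBEGF*, *TGFA*, *BTC* and *NRG1*, the receptor genes *EGFR*, *ERBB2* and *ERBB3*, and *ERRFI1*, whose product inhibits these receptors. They were selected on their values of HMB-treated over control cells on these same arrays, so those values are given as a description, without a test. The 10 genes stand among 15269 genes with a symbol on the array. The files named 7 of them by symbol (21 probes), and the other 3 were found under other names. *AREG* and *HBEGF* carry locus numbers in the files and were matched through the RefSeq gene table, and *NRG1* was matched through the description that the files give its probe. In all, the 10 genes had 31 probes.

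The cells came from the semitendinosus muscle of six-month-old colts and were cultured for 10 d in growth medium, transferred to collagen-coated plates, and near confluence moved to differentiation medium with 2% horse serum. HMB was added after day 2 of differentiation for 24 h, and both HMB-treated and control cells were harvested on day 3. The labels give the amount of HMB as 50 µg, whereas the methods of the study state it in another unit. RNA from HMB-treated cells was labelled with Cy5 and RNA from control cells with Cy3 on each of 4 two-colour arrays (*n* 4), all on 1 slide. Because the dyes were never exchanged, a preference of a probe for 1 dye cannot be told apart from an effect of HMB. The labels call the arrays biological replicates but do not name the colt behind each array. The description field calls the treated cells GO-treated, and the titles and source names, which say HMB, were followed.

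Ligands of the EGF family are made as membrane-bound precursors that proteases of the ADAM group cut free. The released ligand binds EGFR or another ERBB receptor, the receptors pair, and their kinase activity starts the RAS-ERK cascade. Cells limit this signal through inhibitors that ERK activity itself induces, among them ERRFI1 (also called MIG6), the Sprouty and SPRED proteins and the DUSP phosphatases. In muscle, EGFR ligands act on satellite cells as signals for growth, and neuregulin from nerve and muscle acts through ERBB2 and ERBB3.

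The probes are 60-base oligonucleotides, and probes of the same gene read the same mRNA, so they are not independent replicates. Many of them overlap, by 56 bases or more for *HBEGF*, while some pairs of *AREG*, *EREG* and *ERRFI1* probes do not. The 9 probes printed here belong to the 5 measured genes. Capitals mark the bases shared by the probes printed for *AREG*, *EREG* and *EGFR*, the bases common to all 5 *HBEGF* probes, and the bases that the *ERRFI1* probe shares with its neighbour. Positions are those of the files on the EquCab1 genome, all on the plus strand.
AREG probe A_69_P127927: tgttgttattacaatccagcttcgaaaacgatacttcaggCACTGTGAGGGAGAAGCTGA
AREG probe A_69_P003477: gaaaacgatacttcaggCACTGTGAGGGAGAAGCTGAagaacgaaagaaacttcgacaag
AREG probe A_69_P127926: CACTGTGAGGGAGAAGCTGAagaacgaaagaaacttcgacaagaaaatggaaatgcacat
EREG probe A_69_P003483: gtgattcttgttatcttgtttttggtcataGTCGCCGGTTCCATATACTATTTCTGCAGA
EREG probe A_69_P003482: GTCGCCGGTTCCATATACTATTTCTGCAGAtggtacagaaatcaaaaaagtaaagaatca
HBEGF probe A_69_P062346: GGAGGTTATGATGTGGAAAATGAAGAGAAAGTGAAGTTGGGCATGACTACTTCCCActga
EGFR probe A_69_P003336: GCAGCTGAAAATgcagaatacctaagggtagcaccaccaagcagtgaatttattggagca
EGFR probe A_69_P003338: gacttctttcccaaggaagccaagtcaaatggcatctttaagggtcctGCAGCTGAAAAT
ERRFI1 probe A_69_P087728: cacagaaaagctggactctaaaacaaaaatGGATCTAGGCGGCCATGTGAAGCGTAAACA
The *AREG* probe A_69_P127927 spans 2089 bases of chromosome 3, from 37984943 to 37987031, and so lies over an intron, as does the *EREG* probe A_69_P003482, which spans 1961 bases from 37918093 to 37920053. The probes of different genes had little sequence in common: the longest run of bases shared by any such pair among the 10 genes was 9.

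Of the 10 genes, 5 were bright enough to be measured in at least 1 channel on all 4 arrays: *AREG*, *EREG*, *HBEGF*, *EGFR* and *ERRFI1*, with 17 tested probes between them. The other 5, *TGFA*, *BTC*, *NRG1*, *ERBB2* and *ERBB3*, were not. Across all 27384 tested probes, 6257 (22.8%) passed the threshold of the limma test (adjusted P of at most 0.05), and 3 of the 10 genes did so by their brightest probe. As the genes were chosen on this comparison, nothing is read from that count.

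*AREG* encodes amphiregulin, a ligand of EGFR. The brightest of its 4 probes, A_69_P003477 (chromosome 3, 37986995 to 37987054), had a processed signal of 388, 341, 512 and 521 in control cells on arrays 1 to 4. In HMB-treated cells it was 207, 211, 214 and 304. The signal of control cells was the higher on each array, and every control value lay above every HMB value. The log2 ratios of HMB-treated over control cells were -0.91, -0.69, -1.26 and -0.78, a mean of -0.91 ± 0.25 (SD, *n* 4), which is 1.88-fold lower. The other 3 probes gave means of -0.89, -0.87 and -0.94, so that the 4 probes differed by less than the arrays did. On an array the SD between the 4 probes was 0.05 on average, against 0.27 between arrays for a probe. Array 3 had the lowest ratio with all 4 probes.

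*EREG* encodes epiregulin, which binds EGFR and ERBB4. Its brightest probe, A_69_P003483 (chromosome 3, 37918063 to 37918122), had control signals of 202, 176, 306 and 295 and HMB signals of 161, 149, 187 and 328. The log2 ratios were -0.32, -0.24, -0.71 and 0.15, and the mean was -0.28 ± 0.35 (SD, *n* 4). *EREG* was thus lower in HMB-treated cells on 3 arrays and higher on array 4, and its mean is smaller than its SD. All 3 probes had this sign pattern, with ratios between 0.05 and 0.22 on array 4 and between -0.71 and -0.60 on array 3. The mean of the brightest probe was -0.14 without array 3. It was -0.11 with normexp and median centring, a setting that replaces both the background subtraction and the lowess normalisation of the files.

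*AREG* and *EREG* are neighbours. On EquCab1 the probes of *EPGN* (another EGFR ligand, epigen), *EREG*, *AREG* and *BTC* lie in that order on chromosome 3 between 37852652 and 38226165. The gap between the probes of *EREG* and *AREG* is 64.8 kb, that from *EPGN* to *EREG* 63.6 kb, and that from *AREG* to *BTC* 239 kb. The RefSeq gene table also has these 4 genes next to each other, with no other protein-coding gene between them. Only the 2 genes in the middle of the row were measured. The 5 *EPGN* probes and the 5 *BTC* probes were not well above background on enough arrays to be tested.

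*HBEGF* encodes heparin-binding EGF-like growth factor, a ligand of EGFR and ERBB4. It was dim. The brightest of its 5 probes, A_69_P062346 (chromosome 14, 35749051 to 35749110), exceeded background clearly on every array in control and in HMB-treated cells, with control signals of 36.0, 34.4, 36.5 and 52.5. The HMB signals of the same probe were 29.2, 27.0, 20.2 and 23.9, below the lowest control value on every array. Its log2 ratios were -0.30, -0.35, -0.85 and -1.13, with a mean of -0.66 ± 0.40 (SD, *n* 4), or 1.58-fold lower. The mean was -0.36 when the background was corrected by normexp and the ratios normalised by loess, and -0.42 with normexp and median centring, so the size of the difference depended on the processing. The 5 probes share 56 bases or more with each other, yet on an array the SD between the 4 tested ones was 0.21 on average, larger than for *AREG*. In the other 3 tested probes the HMB signal was above background on 3, 2 and 1 of the 4 arrays, and the remaining probe was not tested. The ratio was negative for all 5 probes on each array.

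**Figure D1:**
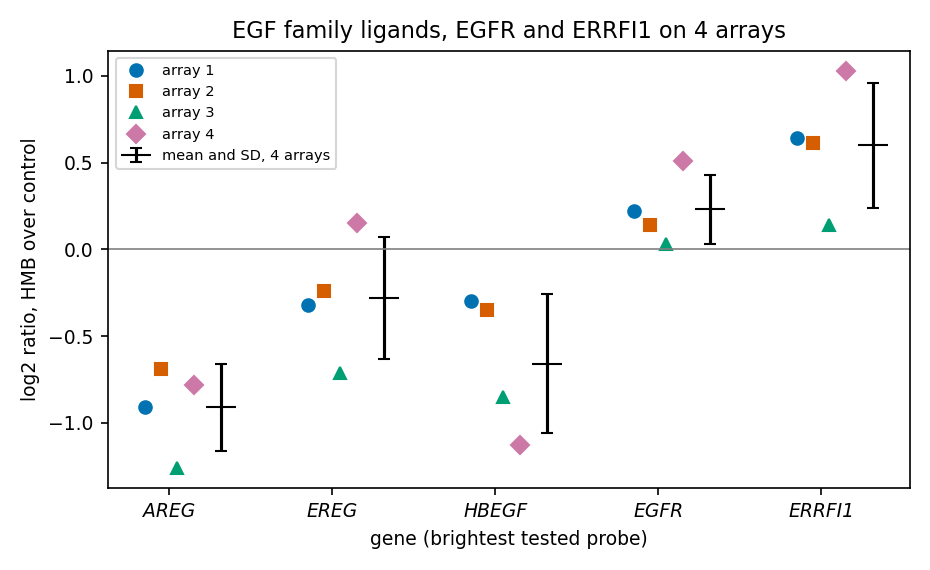
Log2 ratio of HMB-treated over control cells (vertical axis) on each of 4 arrays for the brightest probe of *AREG*, *EREG*, *HBEGF*, *EGFR* and *ERRFI1*, with the mean and SD beside the points. *AREG* lies between -1.26 and -0.69 and *ERRFI1* between 0.14 and 1.03, while *EREG* has points on both sides of 0.

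*TGFA*, the gene of transforming growth factor α, had 1 probe, A_69_P059131 on chromosome 15. It was not well above background in control cells on any array, and in HMB-treated cells it was above it on arrays 2, 3 and 4, with signals of 19.3, 22.3 and 35.6. The HMB signal was the higher on each array, but as only 3 of 4 arrays measured it no fold is given. *BTC*, the gene of betacellulin, had 5 probes within a few bases of each other, and 1 of them was above background in control cells on array 3 alone. None was above it in HMB-treated cells. The single probe of *NRG1*, a ligand gene for ERBB3 and ERBB4 (A_69_P015566, chromosome 27, 11309967 to 11310026), was above background in both channels on arrays 2 and 3, where its log2 ratio was -0.30 and -0.08, and in neither channel on arrays 1 and 4.

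Among the receptors, *EGFR* was the one measured on all arrays. Its 3 probes lie on chromosome 4, and the brightest, A_69_P003336 (24888870 to 24888929), had control signals of 193, 164, 190 and 161 and HMB signals of 225, 181, 195 and 229. The log2 ratios were 0.22, 0.14, 0.03 and 0.51, with a mean of 0.23 ± 0.20 (SD, *n* 4). This is 1.17-fold, the mean was 0.13 without array 4, and the ranges of the signals in control and HMB-treated cells overlapped. The mean of A_69_P003338 was 0.16 ± 0.07 and that of A_69_P003337 was 0.19 ± 0.23, with 1 ratio just below 0 (-0.02, array 2).

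*ERBB2*, a receptor without a known ligand that pairs with the others, had 1 probe (A_69_P033426, chromosome 11, 21438300 to 21438762). It was not well above background in control cells on any array and was above it in HMB-treated cells on arrays 1 and 2, with signals of 30.1 and 15.7. *ERBB3*, which binds neuregulin and has little kinase activity of its own, had 5 probes that differ by single-base steps. Of these, 2 were above background in control cells on array 3 and 1 was above it in HMB-treated cells on array 3. The brightest *ERBB3* probe, A_69_P054057, was above background in both channels on array 3, where its log2 ratio was -0.16, and no other ratio of these receptors was measured in both channels.

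**Figure D2:**
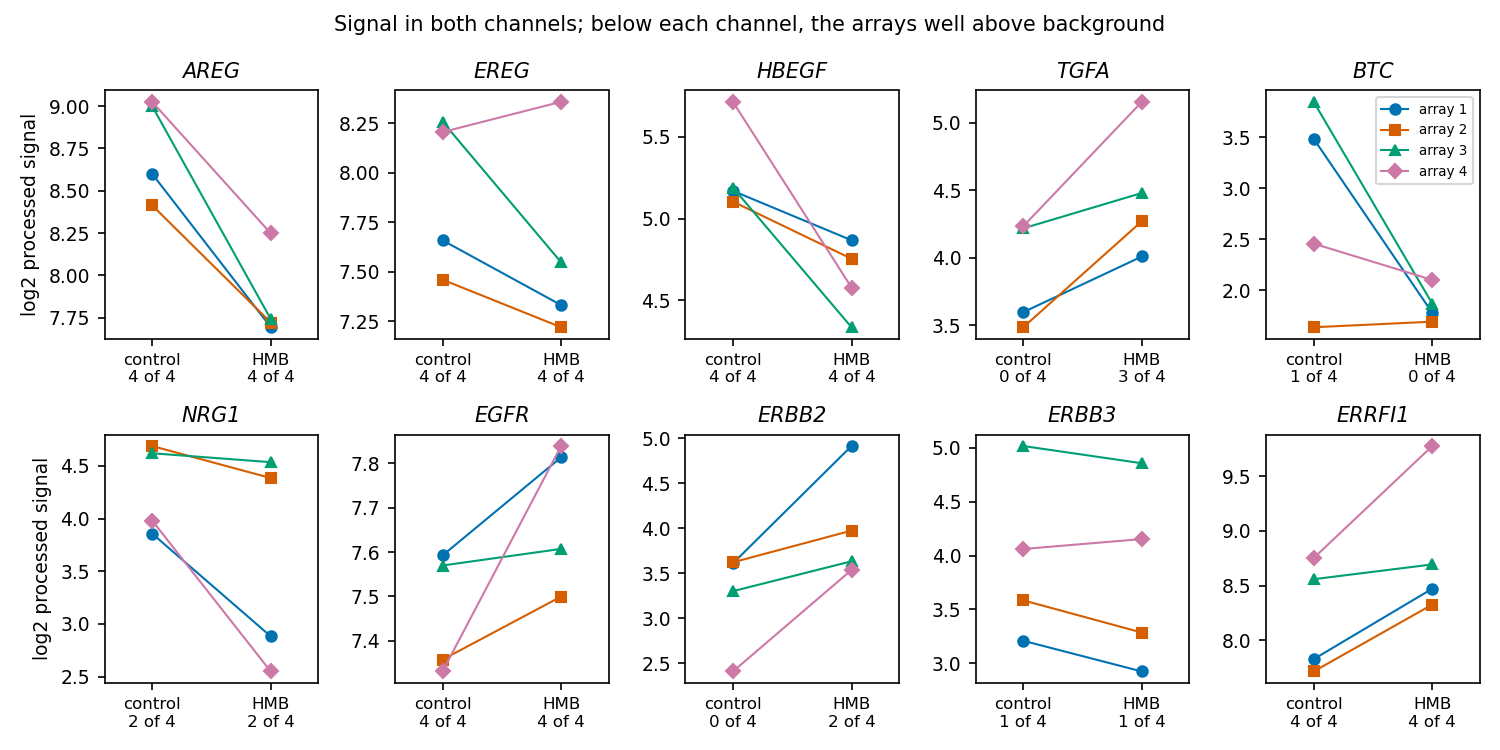
Log2 processed signal (vertical axis, a separate scale in each panel) in control and HMB-treated cells, joined by array, for 1 probe of each of the 10 genes. Below each channel stands the number of the 4 arrays on which the signal was well above background, which is 4 of 4 in both channels for *AREG*, *EREG*, *HBEGF*, *EGFR* and *ERRFI1*.

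*ERRFI1* went the other way from *AREG*. The brightest of its 3 probes, A_69_P087726 (chromosome 2, 40924966 to 40925025), had control signals of 227, 210, 377 and 431, and HMB signals of 355, 321, 414 and 877. The log2 ratios were 0.64, 0.61, 0.14 and 1.03, with a mean of 0.60 ± 0.36 (SD, *n* 4), or 1.52-fold higher. The signals of the 2 kinds of cells overlapped across arrays, whereas within each array HMB-treated cells had the higher value. Array 3 gave the smallest ratio and array 4 the largest with all 3 probes, whose means were 0.60, 0.66 and 0.56. Array 3 had the lowest ratio for the brightest probes of *AREG*, *EREG*, *EGFR* and *ERRFI1*. For *HBEGF* it depended on the probe, array 4 being lowest for A_69_P062346 and A_69_P062347 and array 3 for the other 3.

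**Figure D3:**
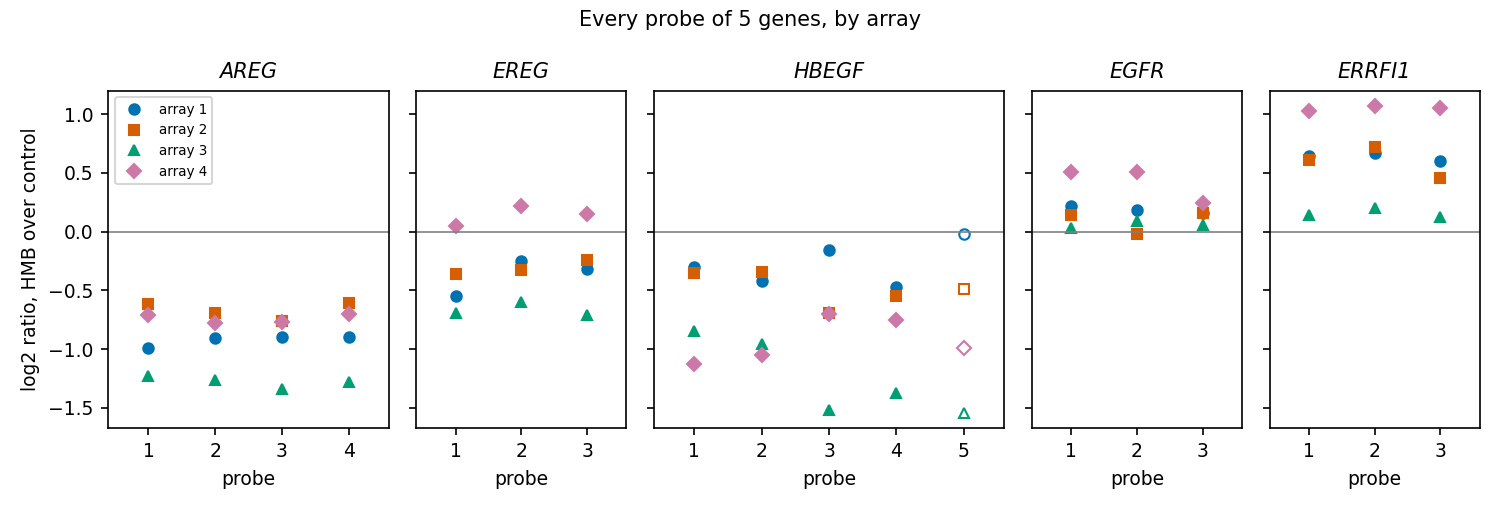
Log2 ratio of HMB-treated over control cells (vertical axis) for every probe of 5 genes, numbered in the order of their identifiers, with a symbol for each array and open symbols for a probe that was not tested. The probes of *AREG* and *ERRFI1* repeat each other within an array, and those of *HBEGF* spread more.

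Ratios nearest to those of *AREG* were looked for among 9964 other genes with a symbol, as the smallest root mean square difference over the 4 arrays. The 4 nearest were *SCN3B* (0.0913), *DCLK2* (0.117), *ATP1B4* (0.119) and *SYTL2* (0.125), and *SLITRK5* came next. *SCN3B*, for a sodium channel subunit, had ratios of -0.82, -0.63, -1.32 and -0.91 on arrays 1 to 4. *ATP1B4*, for a protein of the sodium pump β-subunit family that muscle expresses, had -0.86, -0.84, -1.40 and -0.89. The signal of *SLITRK5* in HMB-treated cells was not well above background on any array, so its distance is not a measured one and only a bound is given, at least 1.65-fold lower. This bound sets the mean control signal against the HMB signal or, where higher, the lowest signal among probes above background on that array, and it is open to dye bias. By this measure *HBEGF* ranked 321, *EREG* 1003, *EGFR* 8017 and *ERRFI1* 9719 of 9964.

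The rest of the pathway was followed through 7 lists with 86 genes, of which 71 were tested, 13 were not well above background and 2 had no probe found by name. In the limma test 15 of the 71 passed, 8 higher and 7 lower in HMB-treated cells. The split depended on the processing: it was 13 higher and 3 lower with normexp and median centring, 2 and 7 with no filter on dim probes, and 2 and 6 without array 1. Over these 71 genes the mean ratio had a median of 0.03, equal to the 0.03 of all 9969 tested genes with a symbol, of which 22.7% passed. The count was 8 without array 1, 7 without array 2 and 7 without array 3, and 3 of the 15 genes (*ANKRD1*, *DUSP6* and *SIK1*) passed whichever array was left out. Each of the other 12 missed the threshold without at least 1 array. In a plain t-test of each probe by itself, 0 of the 71 passed after adjustment and 20 had an unadjusted P under 0.05, against 31 in limma.

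Of the other ligands and receptor of the family, *EGF*, *EPGN*, *NRG2* and *ERBB4* were not well above background and no probe was found for *NRG4*. *NRG3* was the one gene tested, with a mean log2 ratio of 0.09 ± 0.18 (adjusted P = 0.487). Of the proteins that cut or carry the ligands, 9 of 10 genes were tested and *FRMD8* was too dim. *RHBDL2*, for a rhomboid protease of the cell membrane, was higher in HMB-treated cells, with log2 ratios of 0.55, 0.21, 0.92 and 1.79, a mean of 0.87 ± 0.68 and an adjusted P = 0.0462 in limma. Its control signal was above background on 3 of 4 arrays, so the ratio of 1.79 on array 4 is set against a signal not well above background. The gene was not tested when both channels had to be above background, and its adjusted P was 0.176 with no filter on dim probes. The mean was 0.31 with normexp and loess and 0.21 (adjusted P = 0.131) with normexp and median centring, and the gene did not pass without array 1, 3 or 4. *ADAM17*, the main sheddase of amphiregulin, had a mean of -0.23 ± 0.28 (adjusted P = 0.189), and *ADAM10* of 0.13 ± 0.29 (adjusted P = 0.433).

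Of the adaptors and RAS-ERK kinases, 17 of 21 genes were tested and 4 passed, against 1 without array 1, 0 without array 2, 0 without array 3 and 0 without pairing. Among all tested genes with a symbol 22.7% passed, so nothing is read from the count of 4. *PIK3R1*, the regulatory subunit of phosphoinositide 3-kinase, was higher (0.31 ± 0.09, adjusted P = 0.0198), as was *PTPN11*, for the phosphatase SHP2 (0.25 ± 0.08, adjusted P = 0.0356, but 0.0653 with normexp and loess). The exchange factor gene *SOS2* was lower (-0.28 ± 0.12, adjusted P = 0.0334), though with normexp and median centring its mean was -0.10 (adjusted P = 0.426). *GRB2*, for the adaptor that brings SOS proteins to the receptor, was lower too (-0.21 ± 0.05, adjusted P = 0.0473), but its mean was 0.10 (adjusted P = 0.528) with normexp and median centring. *GAB1*, *GAB2* and *PLCG1* were not well above background.

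Of the genes for feedback and receptor turnover, 15 of 17 were tested, *SPRY4* and *SPRED2* being too dim, and 3 passed, all higher in HMB-treated cells. Nothing is read from this count either, given the 22.7% that passed among all tested genes with a symbol. With no filter on dim probes 1 gene of the list passed as higher and 2 as lower, with normexp and loess 3 and 1, and without array 2 the counts were 1 and 1. *DUSP6*, for a phosphatase of ERK, had log2 ratios of 0.37, 0.65, 0.42 and 0.85 and a mean of 0.57 ± 0.22 (adjusted P = 0.0109). *SPRED1*, for an inhibitor of RAS activation, had a mean of 0.43 ± 0.15 (adjusted P = 0.0125), and *SOCS4*, a gene of the suppressors of cytokine signalling, of 0.22 ± 0.06 (adjusted P = 0.0425). *DUSP6* (adjusted P = 0.0614) and *SPRED1* (adjusted P = 0.0504) did not pass with no filter on dim probes, where *SOCS4* did (adjusted P = 0.0379). *SPRED1* also missed the threshold without array 2 (adjusted P = 0.0635) and without pairing (adjusted P = 0.228). *SOCS4* did not pass with normexp and loess (adjusted P = 0.0617), with normexp and median centring (adjusted P = 0.0818), with an intensity trend and robust prior (adjusted P = 0.0616) or as the mean of its probes (0.12, adjusted P = 0.207). The median of the list was 0.10. Of the 12 transcripts that ERK activity induces, all were tested and 1 passed: *EGR1*, an immediate early transcription factor gene, with 0.50 ± 0.31 (adjusted P = 0.0318). *EGR1* did not pass without array 1 (adjusted P = 0.0716), array 2 (adjusted P = 0.112) or array 3 (adjusted P = 0.117). It also missed the threshold with no filter on dim probes (adjusted P = 0.125) and without pairing (adjusted P = 0.168).

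Amphiregulin is also a known target of cAMP signalling through CREB and of the YAP and TEAD factors, so lists for both were included. Their counts stand beside the 22.7% that passed among all tested genes with a symbol. Of 10 cAMP and CREB targets, 7 were tested, and *NR4A2*, *NR4A3* and *PDE4B* were not well above background. Those that passed, *SIK1* (-0.63 ± 0.19, adjusted P = 0.00653) and *CREM* (-0.24 ± 0.11, adjusted P = 0.0491), were lower in HMB-treated cells. The mean of *SIK1* was -0.29 with normexp and loess and -0.32 with normexp and median centring, where that of *CREM* was -0.08 (adjusted P = 0.588). *CREM* did not pass when any 1 array was left out (adjusted P between 0.0879 and 0.147). It also missed the threshold with no filter on dim probes (adjusted P = 0.0796) and as the mean of its probes (adjusted P = 0.0506). All 10 YAP and TEAD targets were tested and 4 passed, against 2 without array 3, 2 without array 4, 1 with no filter on dim probes and 1 without pairing. Of the 4, 3 were lower: *ANKRD1*, which muscle also expresses (-0.99 ± 0.34, adjusted P = 0.00526), *CRIM1* (-0.53 ± 0.30, adjusted P = 0.0253) and *CCN2*, for connective tissue growth factor (-0.38 ± 0.11, adjusted P = 0.0136). With normexp and median centring the mean of *ANKRD1* was -0.44 and that of *CRIM1* -0.32, and *CCN2* had -0.20 and did not pass (adjusted P = 0.0931). *AXL*, a receptor kinase gene, was higher (0.37 ± 0.21, adjusted P = 0.0335). The median of the YAP and TEAD list was -0.24, with 0.02, -0.22, -0.22 and -0.41 on arrays 1 to 4, and that of the cAMP list 0.04.

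**Figure D4:**
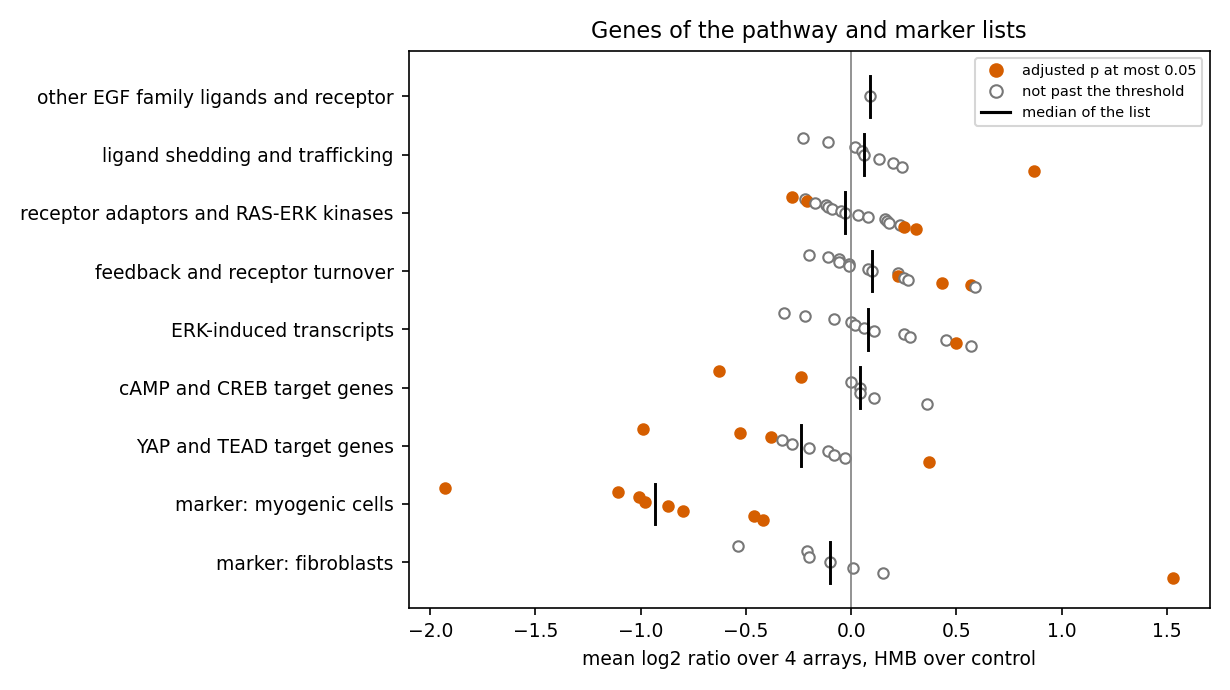
Mean log2 ratio of HMB-treated over control cells over 4 arrays (horizontal axis) for each tested gene of the 7 pathway lists and of the myogenic and fibroblast markers, filled where the adjusted P was at most 0.05, with a bar at the median of each list. The pathway lists have medians between -0.24 and 0.10, and the myogenic markers lie to the left of 0.

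Markers of muscle cells were lower in HMB-treated cells as well. Of 9 myogenic markers, 8 were tested and all 8 passed in limma as lower, with a median of -0.93, while *PAX7* was not well above background. Their medians on arrays 1 to 4 were -0.33, -0.84, -1.12 and -1.32, so that array 1 had the smallest shift, and 4 of the 8 passed without array 2, 4 without array 3 and 4 without array 4. In the plain t-test 0 of the 8 passed after adjustment and 7 had an unadjusted P under 0.05, against 8 in limma. With no filter on dim probes 2 of 9 passed, and 6 of 8 did so with normexp and median centring or without pairing. The brightest was *MYH3*, and the summed signal of the list was 137000, 136000, 151000 and 167000 in control cells and 101000, 70800, 62600 and 60300 in HMB-treated cells. All 7 fibroblast markers were measured, with *COL1A2* the brightest and a median of -0.10, and 1 passed: *PDGFRA*, with 1.53 ± 0.47 (adjusted P = 0.00358). *COL1A1* (mean -0.54), *COL3A1* (-0.21), *COL1A2* (-0.20) and *THY1* (-0.10) were each lower on 3 of the 4 arrays. *DCN* (0.15) and *LUM* (0.01) had means above 0. With normexp and median centring 5 of the 7 passed, and with normexp and loess 2, both directions being counted together. Their summed signal was 374000, 353000, 382000 and 493000 in control cells and 450000, 311000, 332000 and 331000 in HMB-treated cells. Of the 6 leukocyte markers 3 were tested, and *PTPRC*, the brightest, was higher (0.28 ± 0.13, adjusted P = 0.0374), although it did not pass when any 1 array was left out. *CD14* had a mean of 0.02 ± 0.15 (adjusted P = 0.868) and *CD68*, lower on all 4 arrays, of -0.29 ± 0.30 (adjusted P = 0.12), and the median of the 3 was 0.02. The epithelial markers *EPCAM*, *CDH1*, *KRT5* and *KRT14* and all 4 Schwann cell markers were not well above background. In bulk RNA, fewer cells of a type and less RNA per cell cannot be told apart, and the part of cell composition in the ratios of *AREG*, *HBEGF* and *ERRFI1* was not tested.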

How the data were processed

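Total RNA of 4 pairs of HMB-treated and control cultures was amplified and labelled as complementary RNA, which was hybridised to 4 horse arrays. The authors made the deposited files with Feature Extraction. The file headers give 10.10.1.1 as the version of its grid placement, whereas the methods of the study give another version of the software. The deposited intensity values are the spot means, the local background and the processed signal of each channel, and the deposited log10 values, of Cy5 over Cy3 signal, follow the authors' background subtraction and linear and lowess normalisation. The deposited marks state whether a spot is above background, non-uniform or outlying.

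The log10 ratios were multiplied by 3.32 to give log2 ratios, control and marked spots were left out, and repeated spots were averaged into 1 value per probe. Testing required 1 channel clearly above background on each of the 4 arrays (for a repeated probe, in no fewer of its spots than not) and values from 3 or more arrays, which 27384 of 43603 probes met. Limma 3.58.1 (R 4.3.3) tested each mean against 0, two-sided, and P was adjusted by Benjamini and Hochberg's method across the 27384 probes. The procedure was tested on simulated data. The number of arrays limits the precision. A gene stands for its brightest tested probe. Symbols came from the files, from RefSeq (assembly TB-T2T, 2171 probes), from the file description (29 probes) or from older symbols (7 probes).

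The genes named are the 10 members, the called genes of each list with the same sign on all arrays (at most 4 rises and 4 falls), the untested genes of each list and the 5 genes nearest to *AREG*. Values of some list genes are not reported here. *NRG3*, *ADAM10* and *ADAM17* and the cell type markers named by value were added after their values were seen. Members and lists were chosen with earlier results of these data known. The alternatives were normexp with an offset of 50 and loess, normexp with median centring and no lowess, a plain t-test per probe (the study's methods name the adjustment and threshold but no test), a trend with a robust prior, separate channels with or without the array as block, no filter or a filter on both channels, marked spots kept, the series value table (same values), the mean of a gene's probes, and each array left out. Figures were drawn with matplotlib 3.10.9.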

Additional observations from a re-analysis of the deposited data

How the results depend on the processing

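The mean log2 ratios of *AREG*, *HBEGF*, *EREG*, *EGFR* and *ERRFI1* kept their sign under all 13 alternatives that give them a value. Some of these alternatives leave the mean of a probe unchanged by construction, so they say nothing about its sign. They are separate channels with or without the block, no filter, a filter on both channels and the series value table. Keeping marked spots gave the same means too. The brightest probes of *AREG*, *HBEGF*, *EGFR* and *ERRFI1* had ratios of one sign on all 4 arrays, so leaving out an array could not change it. Nor could the mean of a gene's probes, as the means of its tested probes shared a sign. For these genes that leaves normexp with loess and normexp with median centring. *AREG* lay between -0.98 and -0.66, *HBEGF* between -0.78 and -0.36 (the smallest with normexp and loess), *EREG* between -0.42 and -0.11, *EGFR* between 0.13 and 0.29 and *ERRFI1* between 0.46 and 0.76. *AREG* moved by as much as its SD only with normexp and median centring, which replaces both background subtraction and lowess, to -0.66. That setting also moved the median of all tested probes from 0.02 to 0.15 and the share of called probes that were higher from 49.1% to 78.3%, while normexp with loess gave 44.0%. It turned *GRB2* to 0.10, and 13 of 16 pathway genes past the threshold were then higher.

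The count of probes changed by HMB was 768 in a plain t-test per probe, 2226 with separate channels and no pairing, 3690 with no filter on dim probes, and between 2573 and 4957 with an array left out. The share of higher calls was 29.9% without pairing and 36.4% without array 2. For the pathway genes past the threshold these counts were 0, 3, 9 and between 7 and 10. Separate channels with the array as the replicate block are the same fit as the ratios by construction, so the counts were again 6257 and 15. Fewer arrays and, without a filter, more probes enter these fits by construction. For the t-test and the missing pairing the cause was not tested. Signal over background limits what could be measured, since 5 of the 10 genes were too dim to test.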
